A study of Mus musculus with 4 samples.

Results

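Autophagy and lysosome genes were followed in prostate tissue of C57BL/6 mice that underwent vasectomy or a sham operation. The list held 46 genes, of which 44 were measured among the 22180 genes of the array that could be named by a single symbol. The genes were taken as a program that ZKSCAN3, a zinc-finger protein, has been described to repress in part in human cell lines. Whether it represses each gene in this tissue was not tested. Each gene was read from its brightest probe set with exactly 1 symbol. Of the missing pair, Optn, a cargo receptor, had no such probe set, and Glb1, a lysosomal galactosidase, was covered only by a probe set annotated with several symbols.

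RNA from 4 mice was hybridised, 1 array per mouse, with 2 arrays in the vasectomy group and 2 in the sham group. The labels give C57BL/6 as the strain of all animals, lateral prostate as the tissue, 16 weeks as the age at surgery and 24 weeks as the age at harvest, and they give no difference between the groups other than the operation. A second label places the harvest 24 weeks after surgery, and the methods of the study name the dorsolateral prostate, another age at surgery and a human array, whereas the probe annotation used here is that of mouse genes. Values were log2 signals of whole tissue, where fewer cells of a type and less RNA per cell cannot be told apart.

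Autophagy encloses part of the cytoplasm in a double membrane, the autophagosome, and delivers it to the lysosome for breakdown. ATG8 proteins such as LC3 are attached to lipid in that membrane by a conjugation machinery, cargo receptors hold the cargo to them, and lysosomal enzymes digest what arrives. TFEB, TFE3 and MITF are transcription factors that bind a short motif, the CLEAR element, in front of many lysosomal genes, whereas ZKSCAN3 has been described in human cell lines as a repressor of part of the same program. In the prostate, secretory luminal cells make up the bulk of the epithelium, and resident macrophages are rich in lysosomes.

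The CLEAR element was looked for as TCACGTGA, and its core, the E-box, as CACGTG. Both read the same on either strand, and every TCACGTGA holds a CACGTG. Promoter windows of 300 bases, from 250 before to 50 after the start of the gene, were available from RefSeq (GRCm38.p6) for 38 of the 46 genes. TCACGTGA was found in 5 of the 38 (13.2%) and in 304 of 27025 genes with a window (1.12%), and CACGTG in 12 of the 38 (31.6%) and in 2187 of all (8.09%). A match is a run of letters and not a measured binding site. The element is known from lysosomal genes, so a higher share in a list of such genes is no new finding about them. The 5 genes with TCACGTGA, and Lamp1 with 4 copies of the core, are shown because they carry the letters through which TFEB is known to act, and each stretch of 80 bases is printed 5′ to 3′ on the strand of the gene, with the motif in capitals.
Atg3, chr16:45158721-45158800, plus strand: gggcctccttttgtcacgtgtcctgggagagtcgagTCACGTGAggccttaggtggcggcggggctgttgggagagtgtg
Ctsa, chr2:164833693-164833772, plus strand: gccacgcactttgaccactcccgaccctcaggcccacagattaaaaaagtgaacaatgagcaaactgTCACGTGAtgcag
Ctsd, chr7:142387883-142387962, minus strand: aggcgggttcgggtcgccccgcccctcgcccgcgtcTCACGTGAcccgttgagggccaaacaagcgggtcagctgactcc
Gla, chrX:134601174-134601253, minus strand: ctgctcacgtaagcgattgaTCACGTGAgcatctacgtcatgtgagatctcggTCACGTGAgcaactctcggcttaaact
Lamp1, chr8:13159081-13159160, plus strand: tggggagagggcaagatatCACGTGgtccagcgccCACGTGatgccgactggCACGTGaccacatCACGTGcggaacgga
Mcoln1, chr8:3500437-3500516, plus strand: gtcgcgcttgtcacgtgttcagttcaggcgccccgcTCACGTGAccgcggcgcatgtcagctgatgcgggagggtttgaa
In Gla the element occurred 2 times within the printed stretch, and in Lamp1 the 4 cores lay within the 80 bases just before the start. All 6 stretches lie upstream of the start of the gene. Capitals mark TCACGTGA, or CACGTG in Lamp1, and a further CACGTG stands in small letters in Atg3 and in Mcoln1. Ctsa held another TCACGTGA just after the start, outside its printed stretch.

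The tissue was checked by its markers before the groups were compared. Pbsn and Tgm4, secretory products of the mouse prostate, were bright in every array, between 12.39 and 13.13. The array of vasectomy mouse 2 stood apart, since its correlation with the other arrays was 0.970 to 0.976, while the others reached 0.989 among themselves. In it Sbp was at 3.37 and Spink5 at 4.96, against 12.37 to 12.55 and 11.45 to 12.06 in the other 3 arrays. All 7 measured seminal vesicle markers and 13 of 14 macrophage markers were highest in it. The summed linear level of the seminal vesicle markers was 25350 there, but it was also 15932 in sham mouse 1, beside 2693 and 2860 in the remaining arrays. Smooth muscle markers, all 9 of them, were highest in it as well. For the genes described most closely, differences are also given without single arrays that moved them.

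Zkscan3 itself did not separate the groups. Its log2 level was 6.57 and 6.33 after vasectomy and 6.81 and 6.29 after sham surgery. Both the highest and the lowest value belonged to sham mice. The difference, vasectomy minus sham, was -0.10 ± 0.23 (SE of limma, n = 2 arrays a group; limma adjusted p = 1), with a 95% interval from -0.66 to 0.46. Leaving out 1 array it ran from -0.36 without sham mouse 2 to 0.16 without sham mouse 1, and it was 0.02 without vasectomy mouse 2.

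No autophagy or lysosome gene passed the test between vasectomy and sham. By limma with Benjamini-Hochberg adjustment, 0 of the 44 were called, where the background was 0% of 22180 genes in either direction. An unadjusted p under 0.05 was met by 0 of the 44, and by 216 genes higher and 237 lower of all 22180. Such genes were a small part of the array, so the count of 0 does not set the list apart. With 2 arrays a group an exact permutation test of a single gene cannot give a two-sided p below 0.333. The mean was higher after vasectomy for 28 genes and lower for 16, and the differences ran from -0.27 to 0.27 with a median of 0.040, beside -0.00 over all genes. The 95% intervals, not adjusted for the number of genes, all contained 0, and 0 of the 44 reached a 2-fold difference in either direction. The widest, that of Npc1, ran from -0.89 to 0.54.

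**Figure D1:**
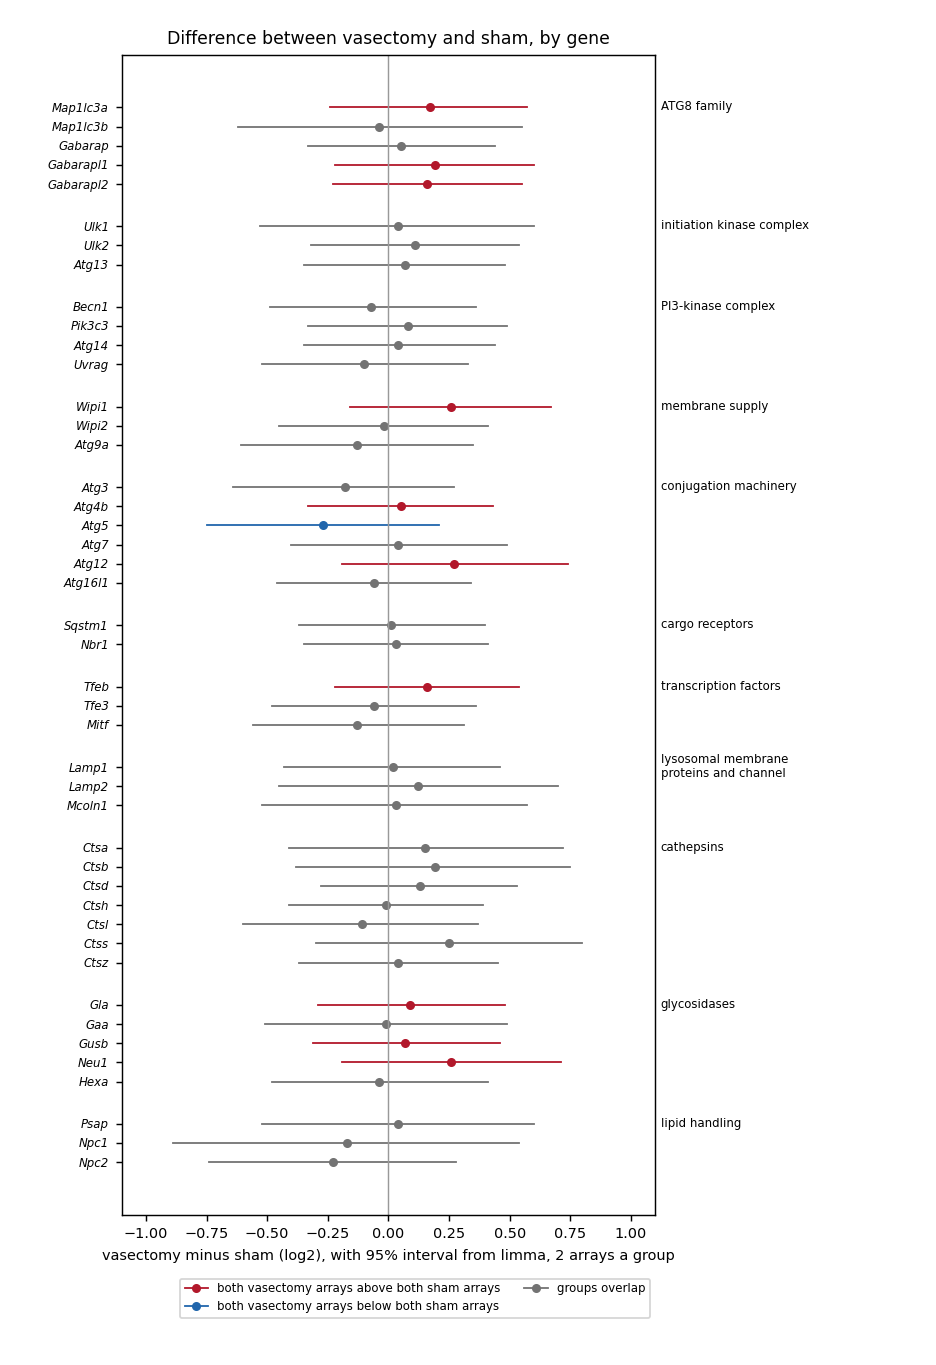
Difference between vasectomy and sham on the log2 scale (horizontal axis) for each of the 44 measured genes, grouped by role, where points are limma estimates and bars their 95% intervals with 2 arrays a group. Every bar crosses 0, and colour marks the 10 genes with both vasectomy arrays above both sham arrays (red) and the only one with both below (blue).

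For 10 of the 44 genes (22.7%) both vasectomy arrays lay above both sham arrays, and for 1 (2.27%) both lay below. Over all genes these shares were 12.5% and 12%, and among the 13556 genes above a stand-in for background they were 13% and 8.96%. That stand-in was a log2 level of 4.625, below which 95% of 1394 genes for smell and pheromone receptors lay, and the 44 genes were all above it. When quantile normalization was repeated on the deposited values, 6 (13.6%) lay above and 2 (4.55%) below, beside 13.4% and 12.7% of all genes. With 1 array against 2 a gene is free of overlap more often, so that counts without a mouse are read only against all genes at the same setting. Without vasectomy mouse 2, 54.5% of the list lay above and 4.55% below, beside 29.9% and 30.5% of all genes, and without sham mouse 1 these were 50% and 9.09% beside 27.6% and 30.4%. Without vasectomy mouse 1, 29.5% lay above and 34.1% below, beside 33.4% and 33.1%, and without sham mouse 2 these were 31.8% and 29.5% beside 31.1% and 28.8%. The surplus of genes above was thus seen without 2 of the mice and not without vasectomy mouse 1 or sham mouse 2. Beyond the main setting, shares were read against all genes only, not against those above the stand-in, where the 44 lie. No test was made of the split.

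Markers of stromal cells also had higher means after vasectomy. This held for 9 of 9 smooth muscle markers, of which 6 had no overlap. By limma 3 of these 9 had an unadjusted p under 0.05 and 0 passed after adjustment. It also held for 8 of 8 fibroblast markers, of which 3 had no overlap. Over all genes 12.5% lay above without overlap, and 216 of 22180 were higher with an unadjusted p under 0.05. All 9 smooth muscle and 6 of 8 fibroblast markers were highest in vasectomy mouse 2. Means were also higher for 5 of 6 endothelial and 6 of 7 adipocyte markers, with 3 genes of each list without overlap. The summed linear level of the smooth muscle markers was 13150 and 16269 after vasectomy and 12061 and 10737 after sham surgery, and that of the fibroblast markers was 3057 and 4058 against 2609 and 2968. None of these markers was at 0, and their part in the split of the autophagy and lysosome genes was not tested.

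The ATG8 family, which coats the growing autophagosome, gave the highest median difference of the autophagy groups at 0.16, and 4 of its 5 members had a higher mean after vasectomy. Gabarapl1, an ATG8 protein of the GABARAP branch, was at 7.86 and 7.63 after vasectomy and at 7.52 and 7.59 after sham surgery. Gabarapl2, of the same branch, was at 7.22 and 7.37 against 7.12 and 7.15. Map1lc3a, which encodes an LC3 isoform, was at 7.06 and 7.07 against 6.80 and 7.00. In these 3 genes the groups did not overlap, with differences of 0.19 ± 0.17, 0.16 ± 0.16 and 0.17 ± 0.16 (SE, limma adjusted p = 1 for each). Gabarapl1 came to 0.31 without vasectomy mouse 2 and 0.07 without vasectomy mouse 1, and Gabarapl2 to 0.09 and 0.23 in the same order. Map1lc3a came to 0.07 without sham mouse 1 and 0.27 without sham mouse 2. In each of the 3 genes the gap between the groups was narrower than the distance between the arrays of at least 1 group. In Gabarapl1 the lower vasectomy array was at 7.63 and the higher sham array at 7.59. Map1lc3b, the LC3 isoform most used as a marker of autophagosomes, followed the mouse number instead, at 10.22 and 10.17 in vasectomy mouse 1 and sham mouse 1 and 9.70 and 9.82 in vasectomy mouse 2 and sham mouse 2. Its difference of -0.04 ± 0.24 ran from -0.30 without vasectomy mouse 1 to 0.23 without vasectomy mouse 2. Gabarap was at 10.49 and 10.40 against 10.41 and 10.37, and its second probe set, at 8.50 and 8.54 against 8.51 and 8.37, also overlapped.

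The kinase complex that starts autophagy showed overlap in all 3 genes. Ulk1, its catalytic kinase, was at 7.33 and 6.76 after vasectomy and 6.95 and 7.07 after sham surgery, so the vasectomy mice held both the highest and the lowest value. Ulk2, a related kinase, had a difference of 0.11 ± 0.17, and Atg13, an adaptor of the complex, one of 0.07 ± 0.17. For Ulk1 the difference of 0.04 ± 0.23 depended on the array left out and was 0.32 without vasectomy mouse 2 and -0.25 without vasectomy mouse 1.

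The lipid kinase complex that marks the site of membrane growth moved little. Becn1 (beclin), its scaffold, was at 7.53 and 7.32 after vasectomy and 7.57 and 7.41 after sham surgery. Pik3c3, the lipid kinase itself, was at 7.38 and 7.22 against 7.31 and 7.13. In both genes each mouse 1 array was above each mouse 2 array, and the same held for Atg14 and Uvrag, which direct the complex to autophagosomes and to endosomes. The 4 differences lay between -0.10 and 0.08.

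Among the genes that bring membrane, Wipi1, which reads the lipid made by that kinase, was at 7.90 and 7.91 after vasectomy and 7.77 and 7.53 after sham surgery. The groups did not overlap, and Wipi1 had the lowest limma p of the list before adjustment and an adjusted p of 1. Its difference of 0.26 ± 0.17 was 0.14 without sham mouse 2 and 0.38 without sham mouse 1. Its relative Wipi2 did overlap, at 7.42 and 7.55 against 7.38 and 7.63. Atg9a, the transmembrane protein of the vesicles that seed the autophagosome, had a difference of -0.13 ± 0.19.

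The 6 genes of the conjugation machinery held both ends of the list. Atg12, a ubiquitin-like protein, was at 6.64 and 6.94 after vasectomy and 6.63 and 6.40 after sham surgery, with the upper end resting on vasectomy mouse 2. Its difference was 0.27 ± 0.19, and it was 0.13 without that array, 0.16 without sham mouse 2 and 0.42 without vasectomy mouse 1. Atg5, to which ATG12 is joined, was at 7.60 and 7.19 against 7.68 and 7.65 and was the only gene of the 44 with both vasectomy arrays below both sham arrays. Its difference of -0.27 ± 0.19 was -0.06 without vasectomy mouse 2 and -0.48 without vasectomy mouse 1. Atg4b, the protease that trims ATG8 proteins, separated the groups by only 0.05 ± 0.15, at 6.71 and 6.73 against 6.68 and 6.66. Atg3 and Atg7, the enzymes that carry and activate ATG8 proteins, and Atg16l1, the partner of the ATG12 and ATG5 conjugate, overlapped, with differences of -0.18 ± 0.19, 0.04 ± 0.18 and -0.06 ± 0.16.

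Both measured cargo receptors lay close together in the 4 arrays. Sqstm1, which binds ubiquitinated cargo, was at 9.02 and 9.03 after vasectomy and 8.95 and 9.07 after sham surgery. Nbr1, a receptor of similar build, was at 8.96 and 8.89 against 8.89 and 8.90. The differences were 0.01 ± 0.16 for Sqstm1 and 0.03 ± 0.15 for Nbr1, and the 95% interval for Sqstm1 ran from -0.37 to 0.40.

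Of the transcription factors, Tfeb was at 5.20 and 5.15 after vasectomy and 4.98 and 5.05 after sham surgery. The groups did not overlap, and the difference was 0.16 ± 0.15 (limma adjusted p = 1). Tfeb was dim, with a mean of 5.10 over the arrays, below the median gene level of 5.17 and near the background stand-in of 4.625. Tfe3 was at 6.54 and 6.34 against 6.58 and 6.42, a difference of -0.06 ± 0.17 that ran from -0.16 without vasectomy mouse 1 to 0.04 without vasectomy mouse 2. Mitf was at 5.88 and 6.19 against 6.13 and 6.19, and only vasectomy mouse 1 stood below the rest, with a difference of -0.13 ± 0.18 that was 0.03 without it. The limma intervals ran from -0.22 to 0.54 for Tfeb, -0.48 to 0.36 for Tfe3 and -0.56 to 0.31 for Mitf. Each held both signs, so these values did not show whether the 3 related factors shared a direction. Among the genes with TCACGTGA printed above, the differences were 0.15 for Ctsa, 0.13 for Ctsd, 0.09 for Gla, 0.03 for Mcoln1 and -0.18 for Atg3. Over the 11 measured genes with the core, 7 were higher and 4 lower with a median of 0.025, beside 17 higher and 8 lower with a median of 0.040 for the 25 measured genes whose window lacked it.

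**Figure D2:**
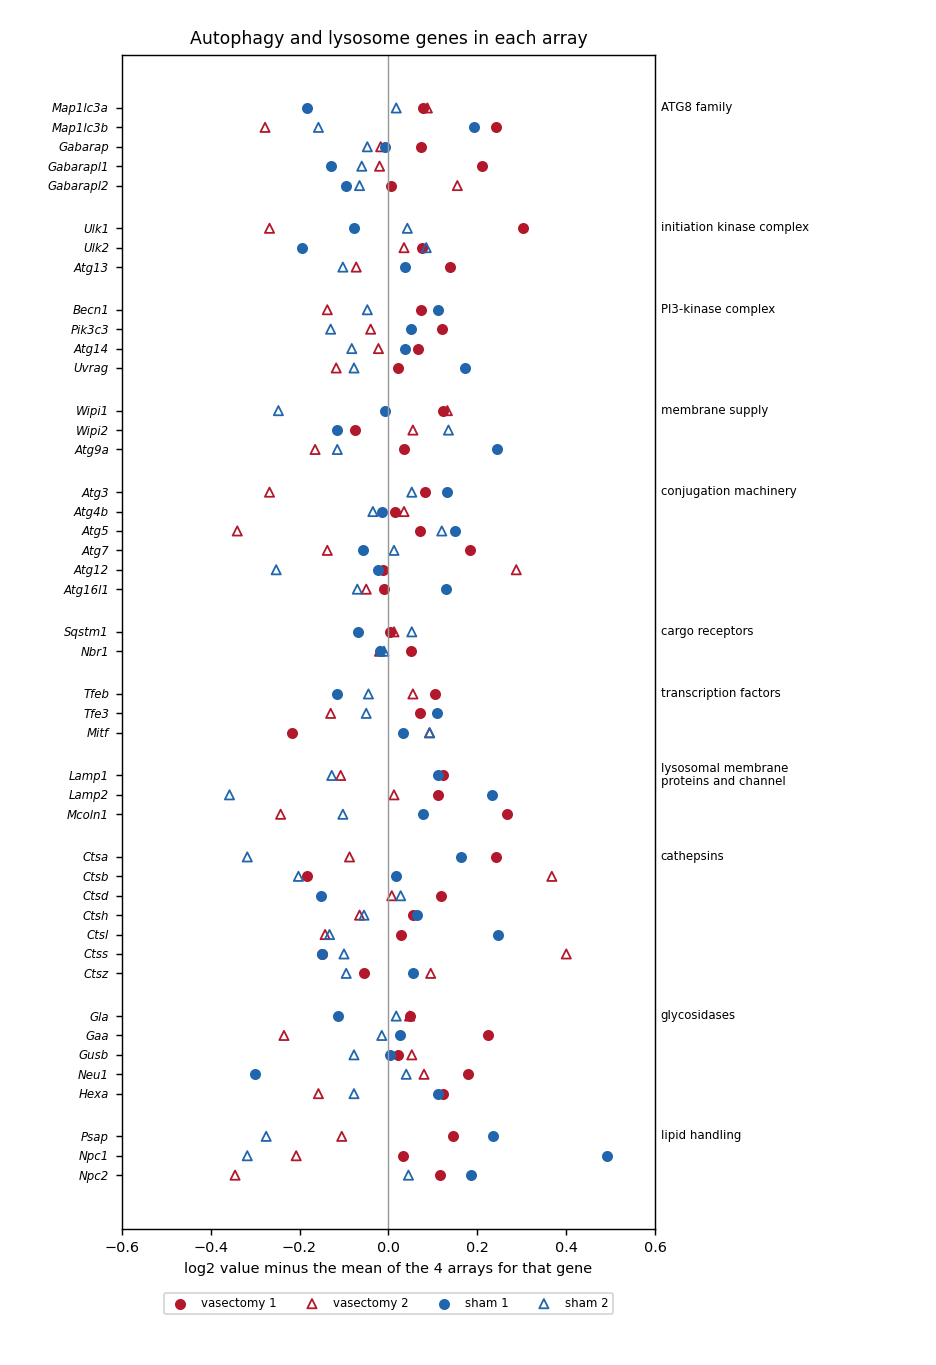
Log2 value of each gene in each array minus the mean of the 4 arrays for that gene (horizontal axis), with genes in rows grouped by role, red for vasectomy, blue for sham, filled circles for mouse 1 and open triangles for mouse 2 of a group. A filled circle lies furthest to the right for 30 of the 44 genes, and equal values cover each other, as for vasectomy 1 and sham 1 in Ctss.

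On the lysosomal side, 12 of the 18 measured genes had a higher mean after vasectomy, with a median of 0.040. Lamp1, an abundant protein of the lysosomal membrane, was at 10.46 and 10.23 after vasectomy and 10.45 and 10.21 after sham surgery. Lamp2, its relative, was at 9.30 and 9.20 against 9.42 and 8.83. Mcoln1, the calcium channel that signals to TFEB, was at 7.51 and 7.00 against 7.32 and 7.14. In all 3 genes the groups overlapped and the highest value was in a mouse 1 array, with differences of 0.02 ± 0.18, 0.12 ± 0.23 and 0.03 ± 0.22. Leaving out 1 array moved Lamp1 between -0.10 and 0.14 and Lamp2 between -0.17 without sham mouse 2 and 0.42 without sham mouse 1.

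The 7 cathepsins, the proteases and peptidases of the lysosome, had a median difference of 0.125, 5 of them with a higher mean, and all overlapped. Ctsd, an aspartic protease, was at 10.88 and 10.77 after vasectomy and 10.61 and 10.79 after sham surgery. Ctsa, a carboxypeptidase, was at 8.31 and 7.98 against 8.23 and 7.75. Ctsl, a cysteine protease, was at 8.47 and 8.30 against 8.69 and 8.31. These genes differed by 0.13 ± 0.16, 0.15 ± 0.23 and -0.11 ± 0.20. The sham mice set the range of all 3 when 1 array was left out, from 0.04 without sham mouse 1 to 0.22 without sham mouse 2 for Ctsd, from 0.40 to -0.08 for Ctsa and from 0.08 to -0.30 for Ctsl in the same order. Without vasectomy mouse 2, Ctsa was 0.32. Ctsh, an aminopeptidase, differed by -0.01 ± 0.16.

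The other cathepsins include Ctss, Ctsb and Ctsz, and these 3 were highest in vasectomy mouse 2. Ctss, a protease of antigen-presenting cells, was at 6.67 and 7.22 after vasectomy and 6.67 and 6.72 after sham surgery. Ctsb, a widely expressed cysteine protease, was at 9.30 and 9.85 against 9.50 and 9.28. Ctsz was at 7.87 and 8.02 against 7.98 and 7.83. Without vasectomy mouse 2, Ctsb turned from 0.19 ± 0.23 to -0.09 (0.46 without vasectomy mouse 1), and vasectomy mouse 1 equalled sham mouse 1 in Ctss. Macrophage markers were highest in the same array: Lyz2 (lysozyme) was at 8.71 there and at 7.04 to 7.55 in the others, and Adgre1 at 5.48 against 4.33 to 4.53. All 14 measured macrophage markers had a higher mean after vasectomy, 13 were above the background stand-in and none was at 0, and their summed linear level was 740 and 1498 after vasectomy and 687 and 895 after sham surgery. The part of macrophage RNA in the cathepsin values was not tested.

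Neu1, the lysosomal sialidase, was at 8.13 and 8.03 after vasectomy and 7.65 and 7.99 after sham surgery, without overlap and with sham mouse 1 below the rest, a difference of 0.26 ± 0.18 that was 0.09 without sham mouse 1 and 0.43 without sham mouse 2. Gla, an alpha-galactosidase, was at 6.79 in both vasectomy mice, against 6.63 and 6.76 in the sham mice. Gusb, the beta-glucuronidase often used as a reference gene, was at 7.55 and 7.58 against 7.53 and 7.45. These 3 glycosidases were higher in both vasectomy mice, by 0.09 ± 0.16 for Gla and 0.07 ± 0.15 for Gusb. Gaa, which digests glycogen, and Hexa, a subunit of hexosaminidase, overlapped at -0.01 ± 0.20 and -0.04 ± 0.18.

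Lipid handling had the lowest median of the groups, -0.175 over 3 genes, and all 3 were highest in sham mouse 1. Npc1, the cholesterol exporter of the lysosomal membrane, was at 6.02 and 5.78 after vasectomy and 6.48 and 5.67 after sham surgery. Its second probe set, at 4.24 and 4.42 against 4.41 and 4.52, lay below the background stand-in. Npc2, which hands cholesterol to NPC1, was at 9.83 and 9.37 against 9.90 and 9.76. Psap, the precursor of the saposins, was at 10.26 and 10.01 against 10.35 and 9.84. The differences were -0.17 ± 0.29 for Npc1, -0.23 ± 0.21 for Npc2 and 0.04 ± 0.23 for Psap, and that of Npc1 was 0.23 without sham mouse 1, -0.58 without sham mouse 2 and -0.05 without vasectomy mouse 2.

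The genes varied little between mice. The distance from the lowest to the highest of the 4 arrays had a median of 0.29 over the 44 genes, and 0 of 44 differed 2-fold between any 2 arrays, against 4.71% of all 22180 genes and 5.38% of the 13556 above the stand-in. A range of at most 0.30 was seen in 52.3% of the list, in 36.2% of genes above the stand-in and in 28.6% of 98 other genes of the pathway. The widest ranges were those of Npc1 at 0.81, which is 1.75-fold, Lamp2 at 0.59, Ctsb and Ulk1 at 0.57 each, and Ctsa at 0.56.

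**Figure D3:**
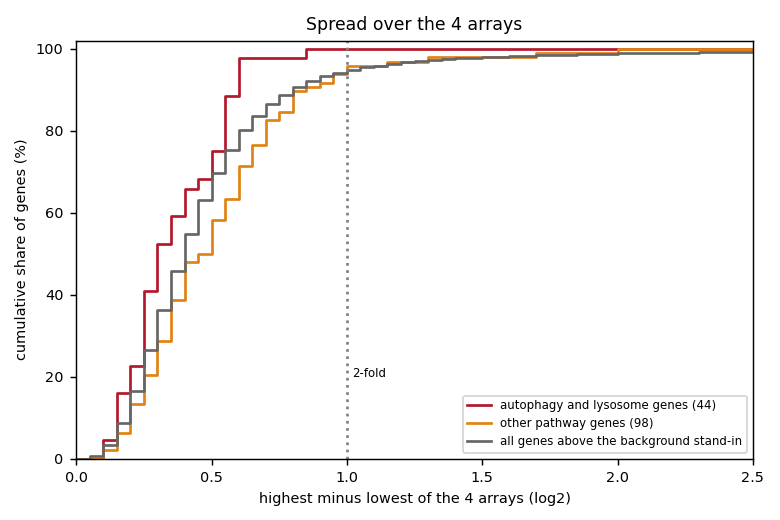
Cumulative share of genes in percent (vertical axis) by the distance between the highest and the lowest of the 4 arrays on the log2 scale (horizontal axis) for the 44 autophagy and lysosome genes, 98 other pathway genes and all 13556 genes above the background stand-in. The curve of the 44 genes ends at 0.81, left of the dotted line at a 2-fold difference, while the other curves run past it.

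The highest and lowest values of the list fell unevenly over the arrays. Of the 44 genes, 17 were highest in vasectomy mouse 1, 13 in sham mouse 1, 9 in vasectomy mouse 2 and 3 in sham mouse 2, and the remainder were tied. The lowest value lay in sham mouse 2 for 16 genes, in vasectomy mouse 2 for 15, in sham mouse 1 for 10 and in vasectomy mouse 1 for 1. Grouped by mouse number, which was done after the values were seen, 30 of 44 (68.2%) were highest in a mouse 1 array and 31 of 44 (70.5%) lowest in a mouse 2 array. Among genes above the stand-in these shares were 52% and 56.3%. The labels do not say what mice of the same number had in common, and the pattern was not tested.

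**Figure D4:**
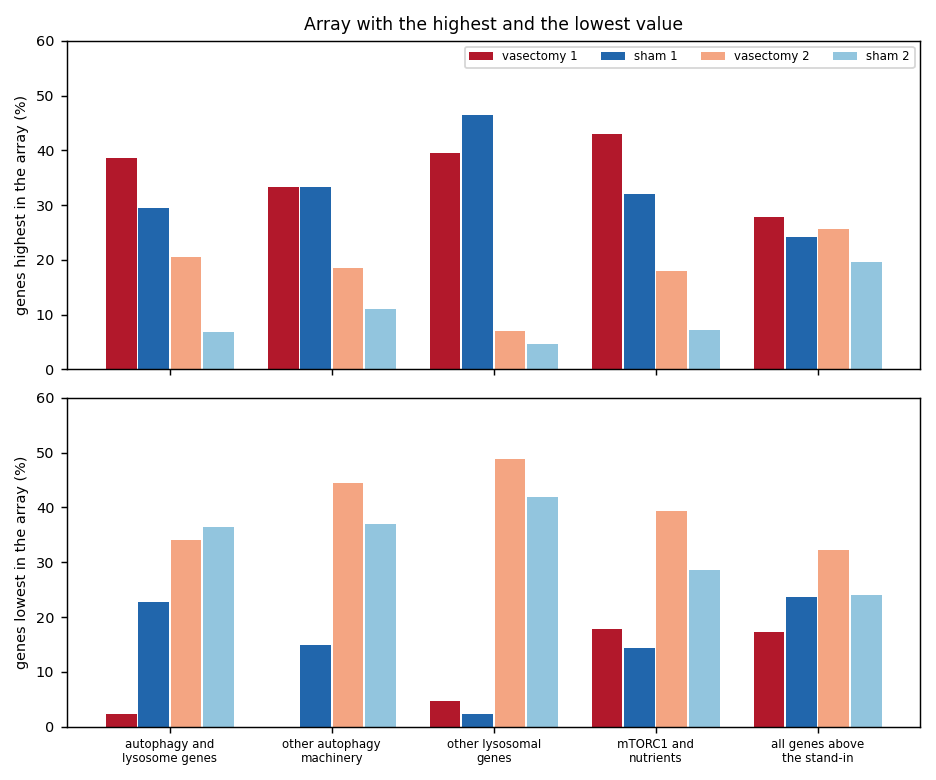
Share of genes in percent (vertical axes) with their highest value (upper panel) or lowest value (lower panel) in each of the 4 arrays, for the autophagy and lysosome genes, for 3 lists of other pathway genes and for all genes above the background stand-in. In the first 4 sets the highest values lie mostly in vasectomy 1 and sham 1 and the lowest in vasectomy 2 and sham 2, whereas the bars of all genes are more even.

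Other genes of the pathway were read in the same way from 3 lists, with 98 of 103 measured. Of these, 48 were higher and 49 lower, and 10 (10.2%) lay above and 7 (7.14%) below without overlap. Over all genes these shares were 12.5% and 12%. By limma 0 of the 98 were called. An unadjusted p under 0.05 was met by 1 gene in each direction, beside 216 higher and 237 lower of all 22180. The median difference was 0.035 for 27 other autophagy genes, -0.01 for 43 other lysosomal genes and -0.002 for 28 genes of mTORC1 and nutrient signalling, the pathway that holds autophagy in check. Of the other lysosomal genes, 37 of 43 (86%) were highest in a mouse 1 array and 39 of 43 (90.7%) lowest in a mouse 2 array. Of 6 endothelial markers, 6 were highest in a mouse 1 array and 5 lowest in sham mouse 2. Other marker lists differed, with 0 of 9 smooth muscle, 0 of 14 macrophage and 0 of 7 seminal vesicle markers highest in a mouse 1 array. The same held for only 1 of 8 fibroblast, 1 of 7 adipocyte and 2 of 8 epididymis and vas deferens markers. Of 8 prostate luminal markers, 7 were highest in a mouse 1 array, but 6 were lowest in vasectomy mouse 2 and 0 in sham mouse 2, so their low values lay in 1 array. The summed linear level of the 8 luminal markers was 16198 in vasectomy mouse 2 and 29807 to 30966 in the other arrays. Their part in the order of the arrays was not tested.

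Among the other autophagy genes without overlap, Vmp1, a membrane protein needed to form autophagosomes, was at 5.92 and 5.25 after vasectomy and 6.52 and 6.05 after sham surgery. Its difference was the largest of that list (limma adjusted p = 1). Tax1bp1, a cargo receptor, was at 9.86 and 9.50 against 10.00 and 9.97. On the upper side, Tecpr1, which acts in autophagosome fusion with the lysosome, was at 6.13 in both vasectomy mice, against 5.82 and 5.84. Rb1cc1, the scaffold of the ULK1 complex, was at 7.81 and 7.96 against 7.69 and 7.58. Of the 27 genes of this list, 5 (18.5%) lay above and 3 (11.1%) below without overlap, beside 12.5% and 12% of all genes. Vmp1 and Tax1bp1 had their lowest value in vasectomy mouse 2, and without it their differences were -0.36 and -0.12, from -0.70 ± 0.28 and -0.30 ± 0.19 over all arrays. Vmp1 was also -0.46 without sham mouse 1 and -1.03 without vasectomy mouse 1, and Tax1bp1 -0.49 without vasectomy mouse 1.

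Among the other lysosomal genes without overlap, Aga, which splits sugar from asparagine, was at 6.88 and 6.42 after vasectomy and 7.12 and 6.91 after sham surgery. Cd63, a membrane protein of lysosomes and exosomes, was at 8.09 and 7.76 against 8.17 and 8.22. Asah1, the acid ceramidase, was at 8.35 and 8.28 against 8.17 and 7.98. Genes on both sides were named here by rule. Of the 43 genes of this list, 2 (4.65%) lay above and 3 (6.98%) below without overlap. Over all genes these shares were 12.5% and 12%. Aga and Cd63 differed by -0.36 ± 0.21 and -0.27 ± 0.18, and by -0.13 and -0.10 without vasectomy mouse 2 or -0.60 and -0.44 without vasectomy mouse 1. Asah1 differed by 0.24 ± 0.16, by 0.15 without sham mouse 2 and by 0.34 without sham mouse 1. Pla2g15, a lysosomal phospholipase, differed by 0.28 ± 0.18 in its brightest probe set (limma adjusted p = 1), by -0.06 ± 0.33 in its second and by 0.11 in the mean of both. The first was 0.14 without sham mouse 2 and 0.43 without sham mouse 1.

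In the mTORC1 list, Castor1, the arginine sensor, was at 5.06 and 4.94 after vasectomy and 4.62 and 4.30 after sham surgery, a difference of 0.54 ± 0.18 (limma adjusted p = 1). Lamtor5, a subunit of the Ragulator that holds mTORC1 at the lysosome, was at 4.72 and 4.73 against 5.01 and 4.95. Rragb, one of the Rag GTPases, was at 3.93 and 4.56 against 3.84 and 2.90, below the background stand-in in every array, and its difference of 0.88 ± 0.36 ran from 0.41 without sham mouse 2 to 1.34 without sham mouse 1. Castor1 was also below it in both sham arrays. Without overlap, 3 of the 28 genes of this list (10.7%) lay above and 1 (3.57%) below, beside 12.5% and 12% of all genes.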

How the data were processed

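Expression was measured by microarray in prostate RNA of 4 mice. The deposited log2 values, rounded to 2 decimals, came from RMA, for which no version is given in the sources used here. Per the submitters' processing notes it was run in Affymetrix Expression Console 1.3.1, and it corrects background, quantile-normalizes arrays and summarizes probes. The log base is not stated and was taken as 2. Scanner files were not analysed here, and the small number of arrays limits the precision. Groups came from the labels. The platform annotation gave 1 symbol to 23521 of 41345 probe sets, which made 22180 genes by the brightest probe set each. Vasectomy was compared with sham by limma 3.58.1 (R 4.3.3), with no covariate, Benjamini-Hochberg adjustment over all genes and a threshold of 0.05. The script was tested on simulated data with differences larger than those of the autophagy and lysosome genes. That test therefore does not bear on differences of their size. The limma SE and p-values set each difference against the spread between mice within the groups, drawn toward a spread common to all genes.

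The members and all lists were chosen with earlier results of these data known. Genes named with values were Zkscan3, the ATG8 family, Sqstm1, the 3 transcription factors, Lamp1, Lamp2, Ctsd, Ctsb and Ctsl, the 5 largest differences each way without overlap, the 5 widest ranges, and the 2 largest each way without overlap of each pathway list. Other members were named in group descriptions. Each array was left out in turn, and the other alternatives were the methods' t-test, an intensity trend, a replicate block, other choices of probe set, filters on dim genes, and rescaling by median or by quantile normalization.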

Additional observations from a re-analysis of the deposited data

How the results depend on the processing

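No autophagy or lysosome gene, no other pathway gene and no gene of the array was called by limma under any alternative run, and the adjusted p of the genes named lay between 0.868 and 1. By the methods' t-test, an unadjusted p under 0.05 was met by 359 genes higher and 392 lower of 22180, and by 0 of the 44. The mouse number was tried as a replicate block although the labels do not say what a number shares. The deviations of same-numbered mice had a correlation of 0.191 over all genes and 0.211 over the 44. With the block, counted as higher or lower in both pairs, 16 of the 44 (36.4%) were higher and 9 (20.5%) lower, beside 23% and 24.5% of all genes. With repeated quantile normalization, 6 lay above and 2 below without overlap, beside 13.4% and 12.7% of all genes. Leaving out 1 array, these counts ran from 13 to 24 and from 2 to 15, where 27.6% to 33.4% of all genes lay above and 28.8% to 33.1% below, and the median difference from -0.012 to 0.093.

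Under the alternatives, 406 values of 33 named genes kept their direction and 18 turned. The replicate block, the intensity trend, the methods' t-test and the filters on dim genes left each difference as it was, so these could not turn it. Other choices of probe set could act only on genes with more than 1. Leaving out 1 array changed the mice compared, and there 114 values kept their direction and all 18 turns occurred. The ranges were -0.08 to 0.40 for Ctsa, -0.09 to 0.46 for Ctsb, -0.30 to 0.08 for Ctsl, -0.10 to 0.14 for Lamp1, -0.17 to 0.42 for Lamp2, -0.30 to 0.23 for Map1lc3b, -0.28 to 0.03 for Mitf, -0.58 to 0.23 for Npc1, -0.04 to 0.08 for Sqstm1, -0.16 to 0.04 for Tfe3, -0.25 to 0.32 for Ulk1 and -0.36 to 0.16 for Zkscan3. Such fits set 1 array against 2 and assume that the lone array varies like the others.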
